A study of Homo sapiens with 16 samples.

Results

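The histone cluster genes encode the core histones H2A, H2B, H3 and H4 and the linker histone H1, and they were taken here as every row of the array table whose gene symbol begins with HIST1H, HIST2H, HIST3H or HIST4H. This gave 65 of 20589 probes, with 64 symbols. A probe was tested when its detection p-value, which sets it against the negative controls of its own array, was under 0.05 on 3 or more arrays. Of the 65 histone probes 33 met this limit and 32 did not, against 12321 of all 20589 probes. Expression was measured in MCF10HER2 cells, a single line in which nontransformed MCF10A breast epithelial cells were transduced to over express the receptor tyrosine kinase HER2. All cultures carried the HER2 transgene and were grown with epidermal growth factor. The HER2 kinase inhibitor CP724,714 was added to parallel cultures at 1 µM, and RNA was collected at intervals of 3 h up to 45 h. The 0 h culture was untreated, each of the 16 time points has 1 array, and no untreated culture later than 0 h was analysed here.

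Most cluster histone genes are replication-dependent. Their mRNAs accumulate in S phase, when new nucleosomes are laid on the copied DNA, and are removed when replication stops. These mRNAs end in a stem-loop bound by SLBP in place of a poly(A) tail, but some cluster genes also make a polyadenylated transcript that is seen in cells that have left the cycle or differentiated. The labels state that cRNA was made with a TotalPrep amplification kit, whose first strand is primed on poly(A). How much of each signal came from polyadenylated and from stem-loop transcripts was not tested, and the comparison below therefore asks only which array signals moved with the replication genes and which moved against them.

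Between 10363 and 11436 of all probes were detected on an array. Background signal ranged from 135.9 to 148.9 up to 21 h and from 164.5 to 173.9 from 24 h on, and the 9 h and 18 h arrays were dim, with an upper quartile intensity of 397 to 418 against 553 to 804 on the others. Of the breast epithelial markers, KRT5, KRT17, KRT18, EPCAM and EGFR were detected on all 16 arrays, while KRT14 was detected on 1. Of the fibroblast, leukocyte and endothelial markers, DCN, CD68 and PECAM1 were detected on all 16 arrays, PTPRC on 7, COL3A1 on 2, CD3E on 1, and COL1A1, PDGFRB, LUM, VWF and CDH5 on 0.

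The histone genes were unevenly detected. Of the 33 tested probes 14 were detected on all 16 arrays and 19 on 3 to 15. The number of histone probes detected was 25 to 38 on the arrays from 0 to 9 h and 19 to 24 on those from 12 to 45 h, so that some dim members passed the limit through the first hours, and counts over the 33 lean toward genes that were high then. Counts over all 65 probes are therefore given beside most of them. By protein, 1 of 6 probes was tested for H1, 10 of 16 for H2A, 9 of 19 for H2B, 7 of 12 for H3 and 6 of 12 for H4. Of the 32 probes left out, 23 were detected on 0 arrays, 4 on 1 array and 5 on 2. They were HIST1H1A, HIST1H1B, HIST1H1D, HIST1H1E and HIST1H1T among the linker histones; HIST1H2AA, HIST1H2AB, HIST1H2AD, HIST1H2AG, HIST1H2AH and HIST1H2AI for H2A; HIST1H2BA, HIST1H2BB, HIST1H2BF, HIST1H2BI, HIST1H2BL, HIST1H2BM, HIST1H2BN, HIST2H2BF, HIST3H2BB and another probe of HIST1H2BD for H2B; HIST1H3A, HIST1H3C, HIST1H3I, HIST1H3J and HIST3H3 for H3; and HIST1H4A, HIST1H4D, HIST1H4F, HIST1H4G, HIST1H4I and HIST1H4L for H4. Many of these genes are near-identical in their coding sequence, and the table gives no probe sequence, so that a signal shared between copies cannot be separated from that of the named gene. HIST2H2AA and HIST2H4 in particular name genes that the genome holds in duplicate.

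Over the time course 28 of the 33 probes were time-dependent by a moderated F-test on a spline of time in limma, against 41.9% of all tested probes. The others were HIST1H2BO, HIST1H2AK, HIST1H2AE, HIST1H3G and HIST1H4C. With no detection limit 28 of all 65 histone probes were time-dependent. The share of all probes that were time-dependent without this limit was not counted. The 41.9% holds for tested probes only, so the count over 65 cannot be set against it.

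**Figure D1:**
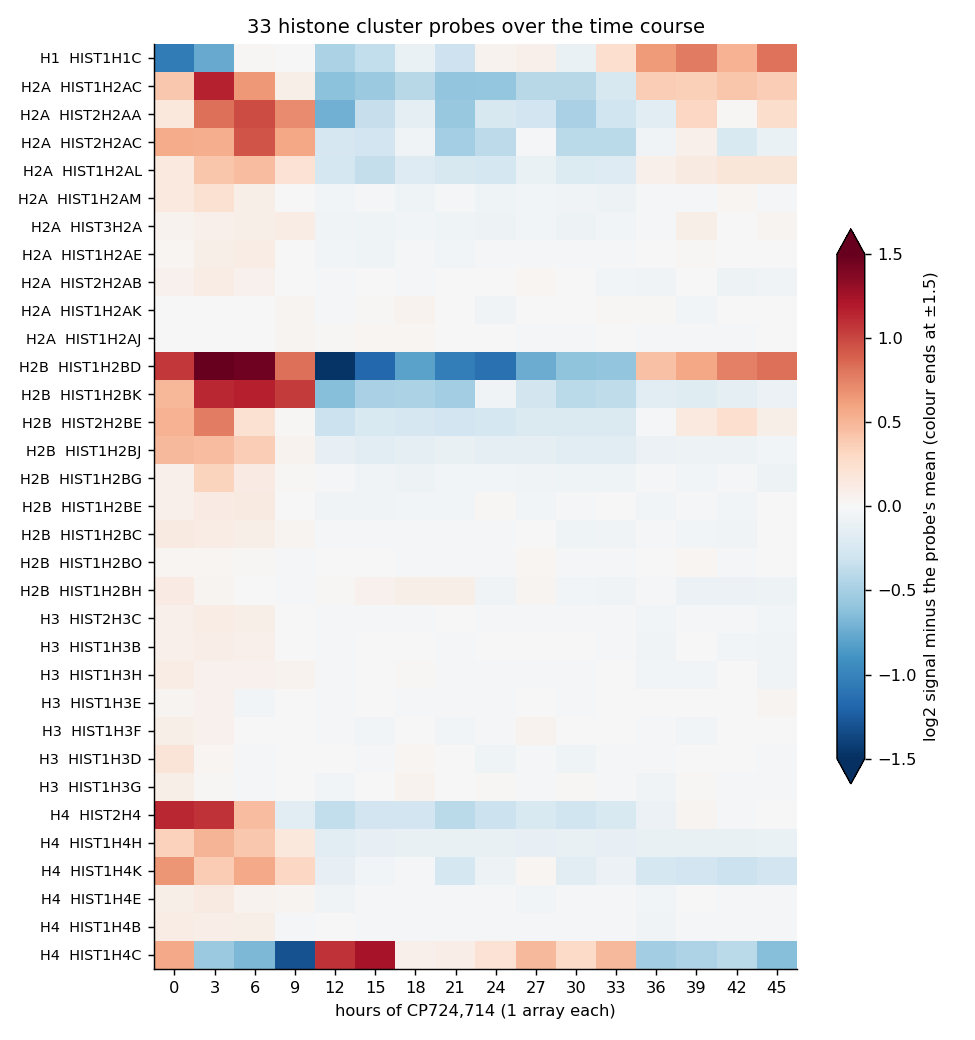
Each row is a histone probe, grouped by the protein it encodes, and each column is the array at the hour given; colour is the log2 signal minus the mean of that probe over the 16 arrays. HIST1H2BD, HIST1H2BK, HIST1H2AC and HIST2H2AA were high from 0 to 9 h and low from 12 to 33 h, HIST1H4C was low at 9 h and high at 12 and 15 h, and HIST1H1C was lowest at 0 h and highest at 45 h.

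To separate members by their relation to DNA replication, each probe was regressed on a replication index, the mean centred log2 signal of the 28 DNA replication genes measured, none of them a histone gene. The coefficient is the log2 change of a probe per log2 unit of the index. The index was 0.05 at 0 h, fell to -0.73 at 3 h and -0.67 at 6 h, rose to its highest value of 0.47 at 12 h, lay between 0.21 and 0.42 from 15 to 33 h and between -0.25 and -0.20 from 36 to 45 h. It was therefore low from 3 to 9 h and from 36 h on, and high between them. A single member, HIST1H4C, moved with the index past the threshold, against 14.2% of all tested probes. By contrast 17 members moved against it, against 14.9% of all tested probes. With no detection limit 17 of all 65 histone probes did so, or 26.2%, against 8.01% of all probes, and of the 14 detected on all 16 arrays 10 did so, against 19.8% of all such probes. The remaining 15 did neither. Without the 3 h array, on which the index was lowest, 10 members moved against it.

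**Figure D2:**
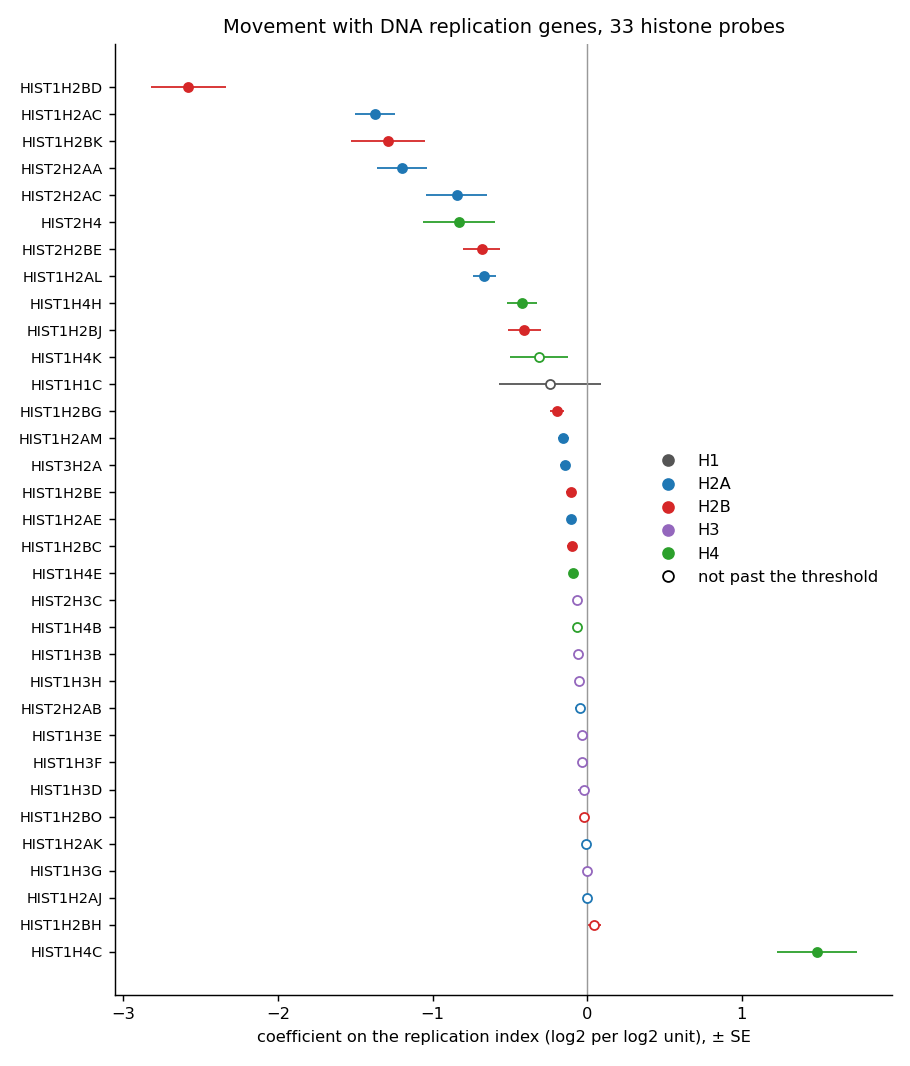
Points are the coefficients of the 33 histone probes on the replication index with their SE, coloured by protein; open points did not pass the adjusted threshold of 0.05. HIST1H4C alone lies clearly to the right at 1.49, HIST1H2BD lies farthest to the left at -2.58, and the H3 probes sit close to 0.

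The members that moved against the index were 7 of the 10 tested H2A probes, 7 of 9 for H2B and 3 of 6 for H4, with 0 of 7 for H3 and 0 of 1 for H1. Promoters are shown for 4 of these members and for the linker histone gene HIST1H1C, which did not pass in either direction. Each window runs from 250 bases before to 50 bases after the RefSeq start site (GRCh38.p14), written 5′ to 3′ on the strand of the gene. Capitals mark exact matches, on either strand, to the TATA box letters TATAAA, the CCAAT box letters CCAAT, and the octamer ATTTGCAT, the binding site of POU2F1 that is well known from H2B promoters.
HIST1H2BD (chr6:26157872-26158171, plus strand): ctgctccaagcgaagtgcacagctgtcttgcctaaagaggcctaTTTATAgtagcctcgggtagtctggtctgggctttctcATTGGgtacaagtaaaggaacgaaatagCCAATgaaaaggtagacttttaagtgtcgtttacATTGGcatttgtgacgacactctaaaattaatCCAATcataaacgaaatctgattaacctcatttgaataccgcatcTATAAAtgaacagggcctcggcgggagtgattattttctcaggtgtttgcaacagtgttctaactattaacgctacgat
HIST1H2BK (chr6:27146806-27147105, minus strand): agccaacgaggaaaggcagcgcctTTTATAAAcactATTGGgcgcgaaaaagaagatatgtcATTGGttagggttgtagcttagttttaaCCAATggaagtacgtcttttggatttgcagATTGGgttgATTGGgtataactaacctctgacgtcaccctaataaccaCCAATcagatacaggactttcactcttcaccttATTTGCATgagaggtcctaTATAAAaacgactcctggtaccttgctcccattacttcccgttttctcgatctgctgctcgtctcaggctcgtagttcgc
HIST2H2BE (chr1:149886633-149886932, minus strand): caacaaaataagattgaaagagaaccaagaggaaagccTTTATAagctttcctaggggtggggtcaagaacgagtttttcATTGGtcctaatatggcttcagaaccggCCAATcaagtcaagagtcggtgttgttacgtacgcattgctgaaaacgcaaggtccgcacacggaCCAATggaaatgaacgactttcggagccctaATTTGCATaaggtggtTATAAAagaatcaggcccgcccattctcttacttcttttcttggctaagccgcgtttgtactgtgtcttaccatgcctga
HIST1H2AC (chr6:26123922-26124221, plus strand): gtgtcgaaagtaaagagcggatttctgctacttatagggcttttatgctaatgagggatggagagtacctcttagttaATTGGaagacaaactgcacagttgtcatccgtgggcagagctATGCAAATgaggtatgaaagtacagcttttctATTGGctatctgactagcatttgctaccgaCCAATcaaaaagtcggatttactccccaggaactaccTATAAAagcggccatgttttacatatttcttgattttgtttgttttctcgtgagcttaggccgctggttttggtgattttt
HIST1H1C (chr6:26056421-26056720, minus strand): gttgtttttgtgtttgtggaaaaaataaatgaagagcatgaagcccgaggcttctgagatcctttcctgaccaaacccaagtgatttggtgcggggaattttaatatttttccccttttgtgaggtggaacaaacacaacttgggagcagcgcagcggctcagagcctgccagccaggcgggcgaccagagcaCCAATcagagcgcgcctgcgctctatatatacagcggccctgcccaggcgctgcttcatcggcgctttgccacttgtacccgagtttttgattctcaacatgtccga
The promoter windows of HIST2H2BE and HIST2H2AC overlap on opposite strands, so that both genes share the boxes between them. RefSeq windows were found for 59 of the 64 symbols, and HIST1H4C was not among them. Of the 17 members that moved against the index, TATAAA was found in 12, CCAAT in 14 and the octamer in 11. The same letters were in 10, 13 and 4 windows of the 15 members that did neither. Among all 35116 promoter windows 11.5% held TATAAA, 34.6% held CCAAT and 1.77% held the octamer. Matches for TATAAA and CCAAT can fall on the same window more than once, as the HIST1H2BK sequence shows. The octamer was in 14 of all 18 H2B windows and in 11 of the other 41, and the HIST1H2BD window held no octamer. Whether these letters bear on the direction of a gene was not tested.

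Among the H2B genes, HIST1H2BD showed the widest range of any tested histone probe. On the 4 arrays of 0, 3, 6 and 9 h its log2 signals were 11.82, 12.36, 12.22 and 11.58. On the next 4 arrays, 12 to 21 h, they were 9.29, 9.58, 9.95 and 9.72, and on those of 24 to 33 h they were 9.64, 10.01, 10.15 and 10.17. The last 4 arrays gave 11.20, 11.34, 11.51 and 11.58. The arrays from 0 to 9 h and from 36 to 45 h were all above those from 12 to 33 h, with no overlap, and the highest was 8.45-fold above the lowest. The coefficient on the index was -2.58 (SE 0.24, adjusted p = 9.63e-07, limma). Within the arrays of 0 to 21 h it was -2.55 and within those of 24 to 45 h it was -2.70.

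HIST1H2BK had the same early fall but only a small late return. Along a straight line through the arrays of 12 to 45 h it rose 1.37-fold (adjusted p = 0.00239, limma). Its lowest, median and highest log2 signals were 12.51 at 12 h, 12.97 and 14.31 at 6 h, a 3.47-fold range. It fell 3.20-fold between 9 and 12 h, while the step from 33 to 36 h was 1.16-fold. The coefficient was -1.29 (SE 0.24, adjusted p = 0.000627, limma), and it was -1.65 within 0 to 21 h but -0.17 within 24 to 45 h, where it did not pass (adjusted p = 0.379).

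HIST2H2BE ranged 2.13-fold from 8.04 at 12 h to 9.13 at 3 h, with a median of 8.25 and a coefficient of -0.68. HIST1H2BJ ranged 1.56-fold, from 7.95 to 8.59 with a median of 8.01, and was not detected at its lowest array, so that this range is only a bound. HIST1H2BG, HIST1H2BE and HIST1H2BC also moved against the index, with coefficients of -0.20, -0.11 and -0.10, but each ranged by less than 1.5-fold and was detected on 4 to 12 arrays. HIST1H2BO and HIST1H2BH, at -0.02 and 0.05, did not pass.

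Among the H2A genes, HIST1H2AC, which lies in the major histone cluster on chromosome 6, had the second most negative coefficient. The log2 signals of the arrays of 0, 3, 6 and 9 h were 9.34, 10.09, 9.59 and 9.03. They then ranged from 8.32 to 8.70 over the 8 arrays up to 33 h and from 9.30 to 9.35 over the last 4. As for HIST1H2BD, the arrays of 12 to 33 h lay below all others. The coefficient was -1.37 (SE 0.13, adjusted p = 1.01e-06, limma), with -1.33 within 0 to 21 h and -1.51 within 24 to 45 h.

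HIST2H2AA, of the smaller cluster on chromosome 1, ranged 3.28-fold, with a lowest log2 signal of 9.28 at 12 h, a median of 9.85 and a highest of 10.99 at 6 h. Its coefficient was -1.20 (SE 0.16, adjusted p = 3.52e-05, limma), and it was -1.34 and -0.76 within the earlier and the later arrays. HIST2H2AC, the divergent partner of HIST2H2BE, ranged 2.75-fold from 10.02 at 21 h through a median of 10.46 to 11.48 at 6 h. Its coefficient was -0.84 (SE 0.20, adjusted p = 0.00366, limma), with -0.95 within 0 to 21 h and -0.40 within 24 to 45 h, where it did not pass (adjusted p = 0.103). With median scaling of the arrays in place of quantile normalization it did not pass over the whole course either (adjusted p = 0.188).

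HIST1H2AL ranged 1.77-fold, from 8.59 at 15 h through a median of 8.94 to 9.41 at 6 h, with a coefficient of -0.67, or -0.18 (adjusted p = 0.239) with median scaling. HIST1H2AM, HIST3H2A and HIST1H2AE passed with coefficients of -0.15, -0.15 and -0.11 and ranges under 1.5-fold. They were detected on 6, 16 and 5 arrays, and HIST1H2AM and HIST1H2AE were not detected at their lowest array. HIST2H2AB, HIST1H2AK and HIST1H2AJ, at -0.05, -0.01 and 0.00, did not pass.

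The H4 genes moved both ways. HIST1H4C was the member that moved with replication. The log2 signals at 0, 3, 6 and 9 h were 14.96, 13.83, 13.71 and 13.08, and they reached 15.47 and 15.63 at 12 and 15 h. They lay between 14.47 and 14.88 over the 6 arrays up to 33 h and between 13.75 and 13.99 over the last 4. The arrays of 3 to 9 h and of 36 to 45 h were all below the others, in mirror image to HIST1H2BD except at 0 h, where both were high. The range was 5.84-fold, with the lowest value on the dim 9 h array. The coefficient was 1.49 (SE 0.26, adjusted p = 0.000388, limma), it also passed within 0 to 21 h (adjusted p = 0.0174) and within 24 to 45 h (1.57, adjusted p = 2.39e-06), and without both dim arrays it was 1.40.

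HIST2H4 had its highest log2 signals at the start, with 9.69, 9.64, 9.02 and 8.39 on the arrays of 0, 3, 6 and 9 h, and lay between 8.16 and 8.60 afterwards. Its coefficient was -0.83 (SE 0.23, adjusted p = 0.012, limma). The call depended on a few arrays, since without the 3 h array the coefficient was -0.59 (adjusted p = 0.111), and it also did not pass within 0 to 21 h (-0.92, adjusted p = 0.0762) or with median scaling (adjusted p = 0.0801). HIST1H4H ranged 1.59-fold, from 7.97 at 12 h through a median of 8.01 to 8.64 at 3 h, and had a coefficient of -0.42. HIST1H4E passed at -0.09 with a range of 1.13-fold, but was detected on 4 arrays and not at its lowest. HIST1H4K and HIST1H4B, at -0.31 and -0.07, did not pass, though HIST1H4B did with median scaling (-0.059, adjusted p = 0.044, limma). HIST1H4K nevertheless fell along a straight line, by 0.84 on the log2 scale over 45 h (adjusted p = 0.000281, limma), from 9.46 at 0 h to 8.48 at 42 h with a median of 8.72.

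None of the 7 H3 probes passed the adjusted threshold of limma for moving with or against the index. At an unadjusted p under 0.05, 2 moved against it. With median scaling HIST2H3C (-0.055, adjusted p = 0.0349, limma) and HIST1H3B (-0.054, adjusted p = 0.0439) did pass against it. HIST2H3C, HIST1H3B, HIST1H3H, HIST1H3E, HIST1H3F, HIST1H3D and HIST1H3G had coefficients between -0.07 and 0.00 and ranges under 1.5-fold. HIST1H3F was detected on all 16 arrays and HIST1H3D on 15, while HIST2H3C, HIST1H3B and HIST1H3E were detected on 3 arrays and HIST1H3H on 4. The offset added in the background correction pulls folds of such dim probes toward 1, so that a change of these genes could have been missed.

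HIST1H1C, the linker histone H1.2 gene and the H1 member that was tested, was called neither with nor against the index. The arrays of 0, 3, 6 and 9 h gave log2 signals of 9.69, 9.98, 10.75 and 10.73. The signals of the next 4 arrays ranged from 10.26 to 10.63, those of 24 to 33 h from 10.64 to 10.99 and the last 4 from 11.26 to 11.55. From 0 to 45 h its signal increased 3.62-fold. It shared the direction of the steps of the members against the index, falling 1.38-fold from 9 to 12 h and rising 1.31-fold from 33 to 36 h. Unlike them it was lowest at 0 h. The straight line rose by 1.46 over 45 h (SE 0.21, adjusted p = 6e-05, limma), while the coefficient on the replication index was -0.24 (SE 0.33, adjusted p = 0.639), with the sign turned under median scaling (0.35, adjusted p = 0.411). It was the sole member with a rising straight line, against 12.9% of all tested probes. A falling line was called for 16 members, against 11.5% of all tested probes. With no detection limit it was called for 15 of all 65, or 23.1%, against 6.62% of all probes. With the arrays up to 21 h and from 24 h on as 2 blocks, 4 members had a falling line, and HIST1H1C still rose (1.55, adjusted p = 0.0369, limma). With a block for each set of 4 successive arrays its coefficient was 2.01 and did not pass (adjusted p = 0.575).

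**Figure D3:**
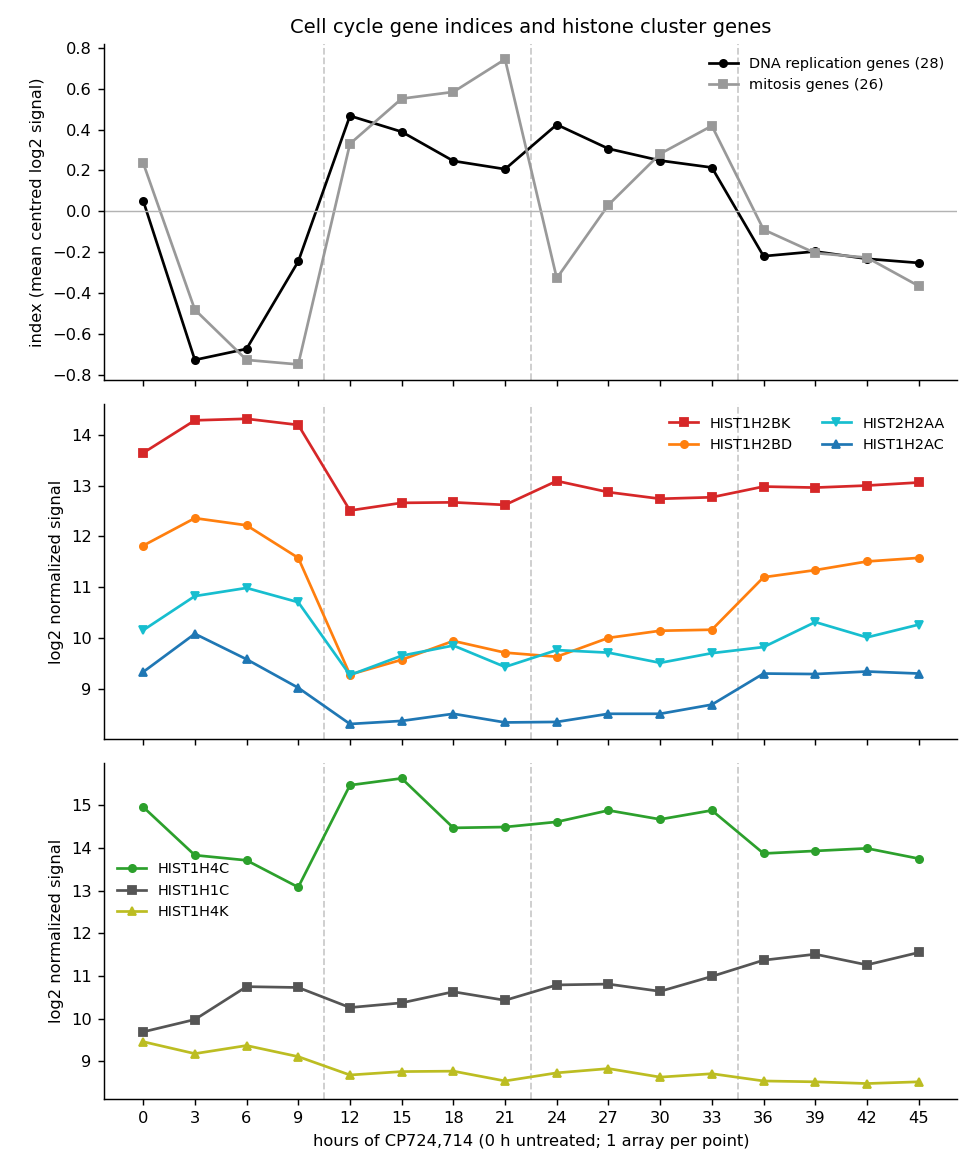
The top panel shows the mean centred log2 signal of 28 DNA replication genes and 26 mitosis genes, and the lower panels show log2 normalized signals of 7 histone probes against hours of inhibitor, with 1 array per point and dashed lines between successive sets of 4 arrays. HIST1H2BD and HIST1H2AC fell from 9 to 12 h and rose from 33 to 36 h while the replication index did the opposite, HIST1H4C moved with the index, and HIST1H1C climbed to 11.55 at 45 h.

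The time course was next read in 2 stretches, each within arrays of like background. From 0 to 21 h 25 members fell, against 15.6% of all tested probes. With no detection limit 29 of all 65 fell, or 44.6%, against 8.57% of all probes. A rise was called for 0 members, and for 0 at an unadjusted p under 0.05, against 14.6% of all tested probes. The steepest slopes, in log2 per 21 h, were -3.08 (SE 0.53) for HIST1H2BD, -1.82 (SE 0.38) for HIST1H2BK, -1.67 (SE 0.22) for HIST2H4 and -1.59 (SE 0.29) for HIST1H2AC.

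From 24 to 45 h, when the replication index went from 0.42 to -0.25, the histone genes that rose were HIST1H2BD and HIST1H2AC, 2 members, against 2.88% of all tested probes. HIST1H2BD rose by 2.14 per 21 h (SE 0.53, adjusted p = 0.0262, limma) and HIST1H2AC by 1.15 (SE 0.29, adjusted p = 0.0307). Both calls were lost when any of the 24, 27, 30, 39, 42 and 45 h arrays was left out, with slopes from 2.09 to 2.33 and from 1.10 to 1.34 over all arrays left out in turn. HIST1H1C had a late slope of 0.88 (SE 0.27, adjusted p = 0.0683) and HIST2H2BE of 0.51 (SE 0.16, adjusted p = 0.0703). A fall was called for 0 members in limma, and for 2 at an unadjusted p under 0.05, against 2.19% of all tested probes. HIST1H4C had a late slope of -1.15 (SE 0.61, adjusted p = 0.304). A fit to the arrays of 24 to 45 h alone, with its own estimate of the spread, gave 9 members that rose and 3 that fell. HIST1H4C was among the latter (adjusted p = 0.00111, limma). The share of all tested probes called by that fit was not counted, so these counts cannot be set against it.

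The late slope was above the early one for 21 members, against 12.7% of all tested probes, and below it for 0, and for 0 at an unadjusted p under 0.05, against 12.1%. With no detection limit it was above for 20 of all 65, or 30.8%, against 6.65% of all probes. For HIST1H2BD the difference was 5.22 log2 per 21 h (SE 0.75, adjusted p = 0.000645, limma).

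**Figure D4:**
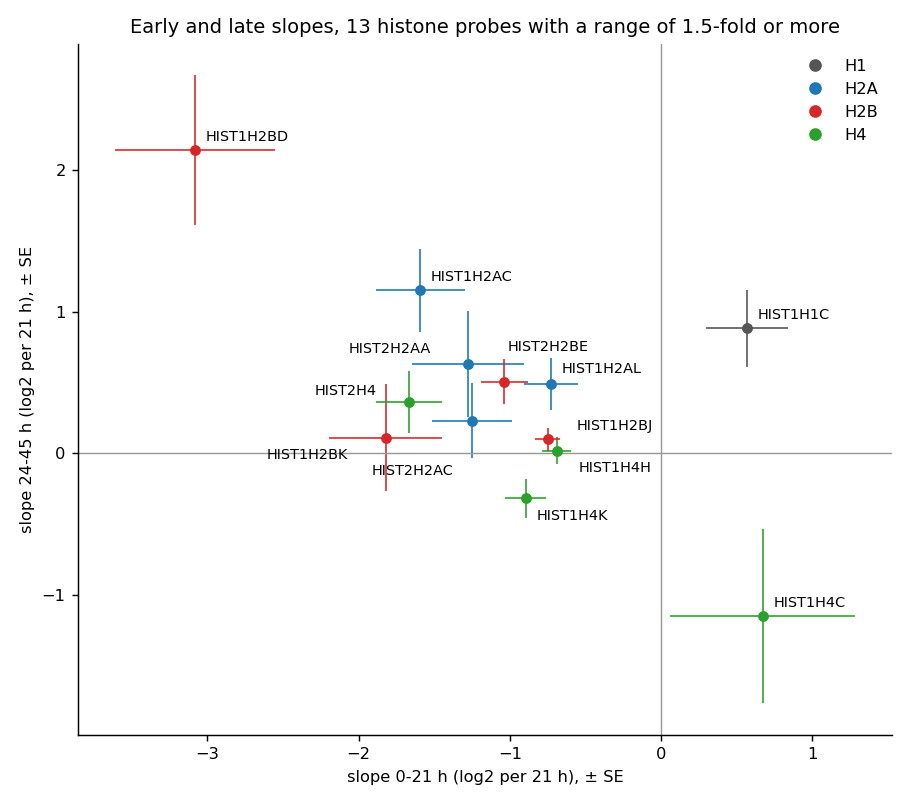
Each point is 1 of the 13 histone probes whose highest array was 1.5-fold or more above the lowest, with the slope of 0 to 21 h across and that of 24 to 45 h upward, both in log2 per 21 h with SE. HIST1H2BD at -3.08 and 2.14 and HIST1H2AC at -1.59 and 1.15 fell and then rose, HIST1H1C lies above 0 on both axes, and HIST1H4C is the point at lower right.

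A straight line through the 12 arrays from 12 to 45 h, a stretch chosen after the values had been seen, left out the early hours in which most members were high. On it 12 members rose, against 20.0% of all tested probes, and 4 fell, against 18.7%. Those that rose were 10 of the 17 that had moved against the index, together with HIST1H1C and HIST1H3E. Some of these rises were small, at 1.03-fold for HIST1H3E, 1.04-fold for HIST1H2AE, 1.06-fold for HIST1H2BJ and 1.08-fold for HIST3H2A. Of these, HIST1H3E was detected on 3 arrays, HIST1H2AE on 5 and HIST1H2BJ on 12. The index itself went from 0.47 at 12 h to -0.25 at 45 h. A rise of members chosen against it therefore follows in part from that choice. HIST1H2BD rose 5.14-fold over the 33 h (adjusted p = 3.67e-07, limma), HIST1H1C 2.44-fold (adjusted p = 1.51e-06), HIST1H2AC 2.28-fold (adjusted p = 7.19e-06) and HIST2H2AA 1.66-fold (adjusted p = 0.00125). HIST1H4C fell by 1.54 on the log2 scale (adjusted p = 6.02e-05, limma), and the other falls were HIST1H2BH, HIST1H4K and HIST2H3C. Their folds were 0.888, 0.843 and 0.977, and HIST2H3C was detected on 3 arrays. No call was made for 7 of the 17 that had moved against the index, HIST1H4H and HIST2H2AC among them, and for 10 that had done neither. The early excess of HIST1H4H did not return, its signal staying between 7.97 and 8.03 from 12 h on.

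Part of these changes came in steps, to an extent that differed between members. Between 9 and 12 h, where the index rose most, HIST1H2BD fell 4.92-fold, HIST2H2AA 2.70-fold, HIST1H2AC 1.63-fold and HIST2H4 1.15-fold. Before that step HIST2H4 had already gone from 9.69 at 0 h to 8.39 at 9 h, and HIST1H2AC from 10.09 at 3 h to 9.03 at 9 h. Between 33 and 36 h, where the index dropped, HIST1H2BD increased 2.04-fold, HIST1H2AC 1.53-fold, HIST2H4 1.1-fold and HIST2H2AA 1.09-fold. The direction of these steps follows from the choice of members against the index. Inside the 4 successive sets of 4 arrays (0 to 9, 12 to 21, 24 to 33 and 36 to 45 h) the values lay closer together. For HIST1H2AC the set means were 9.51 ± 0.45, 8.39 ± 0.085, 8.52 ± 0.14 and 9.32 ± 0.022 (log2, SD over 4 time points each). The share of variance between the sets was 94.5% for HIST1H2BD and 84.6% for HIST1H2AC. Its median was 47.2% over all tested probes, 74.1% over the members and 84.4% over those that moved against the index. The labels do not say how the arrays were handled, and a step of the cells and a step of the handling at these borders cannot be told apart. With the sets as a block, HIST1H2BD (-1.02, adjusted p = 0.0344, limma) and HIST1H2AC (-0.86, adjusted p = 0.0433) were the members still called against the index, while HIST1H4C kept a coefficient of 1.29 but did not pass (adjusted p = 0.208).

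The machinery that serves the cluster genes was read from a list. Of its 15 genes for histone mRNA synthesis and 3′ end processing 13 were tested, 4 moved with the index and 1, HINFP, against it, with a median coefficient of 0.06. NPAT, the cyclin E-dependent coactivator of histone transcription, had a coefficient of 0.06 (SE 0.04, adjusted p = 0.23) and a log2 signal of 8.12 to 8.29. SLBP, the stem-loop binding protein, had 0.13 (SE 0.15, adjusted p = 0.57) and lay at 10.30 at 0 h and 9.75 at 45 h.

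Histone variants encoded outside the clusters are mostly made throughout the cycle from polyadenylated mRNAs. Of 11 tested, 6 moved with the index and the others did not pass, with a median coefficient of 0.23. H2AFZ, the H2A.Z gene, had a coefficient of 0.56 (SE 0.12, adjusted p = 0.00249) and fell by 0.76 over 24 to 45 h (adjusted p = 0.0312, limma), from 15.47 at 33 h to 14.75 at 45 h. H2AFX, whose product is phosphorylated at DNA breaks, had a coefficient of 0.85 (adjusted p = 0.0136) and CENPA, the centromeric H3, of 1.33 (adjusted p = 0.0154). H3F3B, an H3.3 gene, at -0.30 (adjusted p = 0.516), and H1F0, the linker histone of resting cells, at 0.00 (adjusted p = 0.947), did not pass. The H1F0 probe was dim, detected on 13 arrays with log2 signals of 7.94 to 8.04, so that a change could have been missed.

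Among 19 listed histone chaperones and their partners 16 were tested, 7 moved with the index and 1, UBN1, against it, with a median coefficient of 0.15. HAT1, which acetylates new H4, had a coefficient of 0.84 (SE 0.14, adjusted p = 0.000216) and fell by 1.07 over 24 to 45 h (adjusted p = 0.0137, limma). For comparison, 25 of the 28 DNA replication genes moved with the index they form, and 4 passed for a fall over 24 to 45 h, of which RRM2, MCM3 and FEN1 fell by 1.46, 0.88 and 0.73 (adjusted p = 0.0395, 0.0457 and 0.0322, limma). Of 26 mitosis genes 20 moved with it.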

How the data were processed

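RNA of the 16 cultures was hybridised by the authors to Illumina human Ref-8 v2 beadchips. The authors deposited, for each probe and array, an intensity before normalization between arrays and a detection p-value. The neqc function of limma 3.58.1 (R 4.3.3) was applied with an offset of 16 and quantile normalization, and values were tested on the log2 scale. Probes detected (p under 0.05) on 3 or more arrays were kept. With no replicates, the error is the scatter of arrays about each fit. Each linear model (lmFit, then eBayes, variance trend allowed) ran over all 12321 tested probes, with Benjamini-Hochberg adjustment and a threshold of 0.05: a natural cubic spline with 4 degrees of freedom, a straight line, the replication index, and separate lines for 0 to 21 h and 24 to 45 h. Fits take arrays as independent, although they are ordered in time. The number of arrays limits the precision. The scripts were tested on simulated data. The members, gene lists and tests were chosen with earlier results of these data known. Every tested histone gene is named; statistics are given in full for the 6 largest coefficients of each sign, and array values for members ranging 1.5-fold or more. In the other lists, up to 3 genes called on the late slope are named, with 7 further histone-related genes. Alternatives covered background correction, scaling, filters, variance prior, 1 probe per gene, spline flexibility, array blocks, the index and leaving out arrays. Promoters are from RefSeq (GRCh38.p14) and symbols are those of the table. Some marker genes are not reported here.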

Additional observations from a re-analysis of the deposited data

Results flagged for a closer look

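For 11 of the histone probes the slope of 24 to 45 h differed from that of 0 to 21 h by a test of the difference itself (limma, adjusted over all tested probes), among the 13 probes whose highest array was 1.5-fold or more above the lowest. The late slope minus the early slope, in log2 per 21 h, was 5.22 for HIST1H2BD, 2.75 for HIST1H2AC, 2.03 for HIST2H4 and 1.93 for HIST1H2BK. It was 1.91 for HIST2H2AA, 1.54 for HIST2H2BE, 1.48 for HIST2H2AC and 1.22 for HIST1H2AL. For HIST1H2BJ it was 0.85, for HIST1H4H 0.71 and for HIST1H4K 0.58. HIST1H4K differed from the rest in that its late slope was still below 0, at -0.32, against -0.90 in the earlier arrays.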

How the results depend on the processing

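Among the named results that passed the threshold, none changed direction under the alternatives tried. Under median scaling the coefficients of HIST1H1C and HIST1H4K on the index, which did not pass, turned from -0.24 and -0.31 to 0.35 and 0.01, and those of HIST1H2AJ and HIST1H3G, within 0.01 of 0, also changed sign. Outside of leaving out single arrays, 256 of 295 values stayed on their side of the threshold or within 1.5 times the count. With the 14 probes detected on all 16 arrays, 13 members were time-dependent, 4 had a falling line, 10 moved against the index, 12 fell from 0 to 21 h and 11 had a higher late slope. The share with a falling line was 28.6% of these 14, against 14.2% of all such probes, and 48.5% of the 33. Of all such probes 19.8% moved against the index, 19.8% fell from 0 to 21 h and 17.1% had a higher late slope. No such share was counted for time dependence. Median scaling gave 17 members against the index, but HIST2H2AC, HIST1H2AL and HIST2H4 left that group and HIST2H3C, HIST1H3B and HIST1H4B joined it. It also gave 1 member rising from 0 to 21 h. It moved the median signal of an array by -0.21 (3 h) to 0.09 (24 h) on the log2 scale, and it turned the split of all probes called with and against the index from 1755 and 1831 to 3960 and 288, that of the straight line from 1584 and 1420 to 2409 and 585, that of the early slope from 1797 and 1927 to 2073 and 610, and that of the slope difference from 1562 and 1490 to 522 and 1343. Without a variance trend 0 members rose late (HIST1H2BD and HIST1H2AC, adjusted p = 0.053 each). With the array batch as a block 4 had a falling line. A mitosis index gave 8 members against it. The arrays of 24 to 45 h alone gave 3 members with the index and 10 against it, and the slope fitted to them alone gave 9 that rose and 3 that fell. The share of all tested probes was not counted for either fit. With a block for each set of 4 arrays, an alternative picked once the values had been seen, 4 members were time-dependent, 0 had a rising (HIST1H1C lost its call) and 0 a falling line, 0 moved with the index and 2 against it. Without the arrays of 0 to 9 h, also chosen later, 12 had a rising and 4 a falling line and 4 moved with the index. The causes of these shifts were not tested.

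Leaving out each array in turn, 22 to 28 members were time-dependent, 12 to 17 had a falling and 1 a rising line, 1 moved with the index and 10 (without the 3 h array) to 21 (without the 0 h array) against it. Between 23 and 26 fell and 0 to 1 rose early, 0 to 3 rose late, and 17 to 24 had a higher and 0 to 2 a lower late slope. No paired analysis was possible because the labels hold no repeated time point. Dim probes limit what can be seen: 19 of 33 members were undetected on some arrays, where a fold is only a bound.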

Other observations

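Another probe of HIST1H2BD was detected on 0 arrays, with a highest intensity of 205, while the tested one was detected on all 16. In RefSeq, 4 of the 17 members that moved against the replication index have a gene model longer than 1000 bases (HIST1H2BC, HIST1H2BD, HIST1H2BK and HIST2H2BE), as do 2 of the 15 that did neither (HIST1H3D and HIST1H3E) and 1 of the 31 symbols not tested (HIST2H2BF). The model of HIST1H4C, which moved with the index, is 405 bases long, and the median over all 64 symbols is 494. These lengths span introns and alternative ends, and which transcript each probe measures was not tested.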
